A study of Mus musculus with 2 samples.

Results

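Followed here are 10 genes of the endoplasmic reticulum (ER) and its stress response in single cells of mouse buccal mucosa: the chaperones and folding factors Hsp90b1, Hspa5, Calr, Pdia4, Pdia6, Manf and Sdf2l1, and the transcription factors Xbp1, Atf4 and Ddit3. They were taken by symbol, are 10 of the 27998 genes in the count tables, and had no part in forming the groups of cells below, apart from a closing split on Hspa5 and one on Ddit3. The 10 genes and the pathway lists used below were chosen with earlier results of these data known, so their counts are descriptions. All 10 were detected in both libraries. The cells came from the buccal mucosa (the lining of the cheek) of C57BL/6 female mice, 12 weeks old, of which 10 were pooled. They had been sorted for high CD104, the β4-integrin chain that anchors basal keratinocytes to the basement membrane, and 1 suspension was loaded as 2 technical replicates on the 10x Chromium platform, called library 1 and library 2. There is thus 1 independent sample, no treated or mutant group, and no test between conditions.

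The ER folds proteins that enter the secretory pathway. Its chaperones bind unfolded chains, its disulfide isomerases set their cysteine bridges, and when unfolded chains build up, 3 sensors (Atf6, Ern1 and Eif2ak3, the genes of ATF6, IRE1 and PERK) start the unfolded protein response. Atf6 and spliced Xbp1 switch on chaperone genes, while PERK raises translation of Atf4, which switches on amino acid genes and Ddit3, the gene of the factor CHOP. Much of the control of Atf4 is at translation, and the spliced form of Xbp1 is made after transcription. Counts of mRNA at the 3' end, as here, read neither step.

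Cells were grouped by other genes. Krt4 and Krt13, the keratins of differentiating oral epithelium, gave 3 bins by their summed level of under 80, 80 to 350 and at least 350 UMIs (unique molecular identifiers, counted transcripts) per 10000 UMIs of the cell. The first bin held 3517 cells of library 1 and 4098 of library 2, the second 1936 and 2409, and the third 1454 and 2056. Histone-high cells had a sum of Hist1h1c, Hist1h2bc and Hist1h4i of at least 5 per 10000 (1038 and 1354 cells), and stress-type cells a sum of Krt16, S100a8 and Alox15 of at least 10 (116 and 176 cells). Cycling cells (2205 and 2867) were set apart by phase genes. Levels are UMIs of a gene summed over the cells of a group in 1 library, per 10000 UMIs. A gene was called higher or lower where it differed by at least 1.5-fold (0.58 on the log2 scale) the same way in both libraries, at a mean level of at least 0.2 per 10000. This is a rule of size, not a test. Square-bracketed ranges are 95% exact intervals and cover counting error alone, or, for shares of cells, the draw of cells from this suspension.

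The 2 libraries held 67962712 and 73935792 UMIs over 7215 and 9076 barcodes, of which 6907 and 8563 were kept, with medians of 7690 and 6709 UMIs per kept cell. They share 104 barcode sequences. Markers of basal cells, the cells the CD104 sort is meant for, were not level over the kept cells: averaged over the libraries, Itgb4, the gene of CD104, had 1.21, 0.48 and 0.12 UMIs per 10000 from the lowest to the highest Krt4+Krt13 bin, and the basal keratin Krt14 had 87.6, 24.6 and 5.10. Fibroblast, endothelial and melanocyte markers summed to at most 0.01 per 10000 over the kept cells. Cells with Krt7+Krt18 (glandular-like, 68 and 54) or Ptprc+Cd74+Cd52 (immune, 33 and 51) of at least 5 stayed in. Depth and cell cycle moved with the bins: median UMIs were 6468, 8221 and 14725.5 in library 1 and 5390, 6911 and 11984.5 in library 2, and cycling cells made up 43.5%, 33.4% and 2.06% in library 1 and 47.7%, 35.8% and 2.43% in library 2. Their part in the differences between bins was not tested, apart from the values given without cycling cells.

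The promoter windows of 4 chaperones hold the element through which chaperone genes are known to answer ER stress, which is why these sequences are shown first. The ER stress response element (ERSE) is CCAAT, then 9 letters of any base, then CCACG, and joins a half-site bound by NF-Y to one bound by ATF6 or XBP1. It was searched on both strands in windows running from 250 bases before to 50 after the RefSeq start site (GRCm38.p6). It lay in 4 of the 6 chaperone windows, those of Hsp90b1, Hspa5, Calr and Pdia6, and in 39 of 32851 windows of all genes (0.119%). The windows of Pdia4, Sdf2l1, Xbp1, Atf4 and Ddit3 did not hold these letters. Windows were matched for 9 of the 10 genes, all but Manf. The 5 sites are given in the direction of the gene, with the half-sites in capitals and the spacer in lower case. 2 of them stand on the reverse strand.
Hsp90b1, forward site, chr10:86705638-86705656: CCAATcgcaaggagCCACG
Hsp90b1, reverse site, chr10:86705533-86705551: CGTGGtgaggcacgATTGG
Hspa5, chr2:34772025-34772043: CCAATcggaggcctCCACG
Calr, reverse site, chr8:84847075-84847093: CGTGGtcgaccctcATTGG
Pdia6, chr12:17266491-17266509: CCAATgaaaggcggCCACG
The last base of the Hspa5 site lies 46 bases before the RefSeq start site, that of the Pdia6 site 79, that of the Calr site 143, and those of the Hsp90b1 sites 193 and 88. The GENCODE span of Hspa5 given further below begins earlier, at chr2:34771970, so the Hspa5 site lies inside that span. The 250 bases before the start are printed for Hspa5, with 1 site, and for Hsp90b1, with 2, with the whole 19-letter sites in capitals.
Hspa5, chr2:34771840-34772089, plus strand: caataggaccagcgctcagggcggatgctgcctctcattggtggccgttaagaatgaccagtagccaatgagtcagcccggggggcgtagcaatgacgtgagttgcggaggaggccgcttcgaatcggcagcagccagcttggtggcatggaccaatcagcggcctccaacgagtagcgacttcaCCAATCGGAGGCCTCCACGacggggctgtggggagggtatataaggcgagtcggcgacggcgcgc
Hsp90b1, chr10:86705445-86705694, minus strand: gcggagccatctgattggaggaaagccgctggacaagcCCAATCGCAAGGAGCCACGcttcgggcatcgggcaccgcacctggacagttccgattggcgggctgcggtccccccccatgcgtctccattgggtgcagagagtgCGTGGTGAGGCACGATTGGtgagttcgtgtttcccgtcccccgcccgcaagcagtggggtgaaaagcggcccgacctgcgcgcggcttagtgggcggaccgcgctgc
The CCAAT half-site alone, which overlaps ERSE, lay in 8 of the 9 windows and in 37.4% of all windows. ERSE-II (ATTGG, 1 letter of any base, CCACG), the XBP1 element TGACGTGG and the Atf4-type element TGATGNAAT were in 0 of the 9 windows of the set, against 0.0365%, 0.676% and 0.965% of all windows. A match of letters is a description and shows no binding.

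Per 10000 UMIs, the summed level of the 7 chaperones held nearly level across the 3 Krt4+Krt13 bins while single genes went different ways. The sum was 12.7, 11.8 and 12.9 per 10000 in library 1 and 13.5, 12.6 and 13.3 in library 2, from the lowest to the highest bin. Between the highest and the lowest bin its log2 ratio was 0.02 [-0.002 to 0.04] in library 1 and -0.01 [-0.04 to 0.01] in library 2. Of the 7 chaperones, Hsp90b1 fell and the other 6 stayed within 1.5-fold. Outside the sum, Xbp1 rose, and Atf4 and Ddit3 stayed within 1.5-fold. Of all 5085 genes compared, 39.2% were past the rule, 9.77% higher and 29.4% lower, so 1 higher and 1 lower of 10 is not a high share. The median log2 ratio was 0.16 over the 10 genes and -0.27 over all genes. The ratio of the sum thus lay above that of the median gene. The main scaling gave 497 genes higher and 1495 lower, and scaling by the median of ratios between genes gave 778 higher and 943 lower.

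Hsp90b1, the gene of GRP94, an ER chaperone whose known clients include integrins, had 3.57, 3.02 and 2.11 UMIs per 10000 in library 1 and 3.91, 3.16 and 2.21 in library 2. Each step in Krt4+Krt13 was thus lower than the one before in both libraries. Between the highest and the lowest bin the log2 ratio was -0.76 [-0.81 to -0.71] in library 1 and -0.83 [-0.87 to -0.78] in library 2. Without cycling cells the difference shrank to -0.36 and -0.42, and under the median of ratios it was -0.49 and -0.56, both inside 1.5-fold. In cells neither histone-high nor cycling, levels averaged over the libraries were 2.39, 2.22 and 2.15 from the lowest to the highest bin. They were 4.36, 3.85 and 2.65 in cycling cells that were not histone-high. Histone-high cells that were not cycling had 4.63, 3.28 and 2.04.

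Calr, the gene of the glycoprotein chaperone calreticulin, ran the other way. It had 2.60, 2.64 and 3.71 per 10000 in library 1 and 2.40, 2.65 and 3.59 in library 2. The log2 ratios of 0.52 and 0.58 between the highest and the lowest bin just missed the rule in both libraries, and passed it under the median of ratios (0.78 and 0.85) and with Krt4 and Krt13 left out of the total (0.61 and 0.68). Sdf2l1, a partner of the co-chaperone ERdj3, had 0.33, 0.35 and 0.50 in library 1 and 0.40, 0.39 and 0.53 in library 2, with log2 ratios of 0.58 and 0.39. It passed under the median of ratios (0.85 and 0.66).

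The remaining chaperones had smaller ratios. Hspa5 encodes BiP, the ER HSP70 that also binds the 3 sensors, and had 2.05, 1.81 and 2.02 per 10000 in library 1 and 2.21, 2.00 and 2.24 in library 2. Its ratios between the outer bins were -0.02 [-0.08 to 0.04] and 0.02 [-0.03 to 0.07]. Pdia6 and Pdia4 encode disulfide isomerases. Their ratios were 0.18 and 0.13 for Pdia6 and -0.21 and -0.28 for Pdia4. Manf, which encodes a BiP-binding ER protein that can be secreted, had ratios of 0.19 and 0.12, and of 0.58 and 0.48 without cycling cells, which is just inside 1.5-fold in library 1. Under the median of ratios Hspa5 had 0.25 and 0.29, Pdia6 0.45 and 0.40, and Manf 0.46 and 0.39. Pdia4 had 0.05 and -0.02 there, and all of these stayed inside 1.5-fold.

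Among the transcription factors, Xbp1 rose with the mucosal keratins. Its level was 0.55, 0.85 and 1.34 per 10000 in library 1 and 0.57, 0.89 and 1.42 in library 2, so the groups kept the same order in both. The log2 ratios between the outer bins were 1.28 [1.19 to 1.37] and 1.32 [1.23 to 1.40], a mean fold of 2.46, and Xbp1 lay above 95.4% of the genes compared. Already between the middle and the lowest bin it was higher by 0.61 and 0.65, the 1 member of the 10 past the rule there, against 11.3% of 5374 genes (4.24% higher and 7.09% lower). That call sits near the rule's edge and was lost under 5 alternatives that keep 1.5-fold, for example with 0.53 in library 1 and 0.72 in library 2 after thinning to 3000 UMIs.

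Atf4 and Ddit3 followed neither Xbp1 nor the chaperone sum. Atf4, the effector of the integrated stress response, had 0.67, 0.79 and 0.75 per 10000 in library 1 and 0.63, 0.70 and 0.70 in library 2, with a log2 ratio of 0.16 in each library between the outer bins. Ddit3 had 0.23, 0.18 and 0.18 in library 1 and 0.25, 0.20 and 0.19 in library 2, with ratios of -0.39 and -0.38. Without cycling cells Ddit3 came past the rule, at -0.62 and -0.61. Under the median of ratios its ratios shrank to -0.12 and -0.11, and those of Atf4 were 0.43 in each library. With Krt4 and Krt13 left out of the total, Ddit3 had -0.29 and -0.28.

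**Figure D1:**
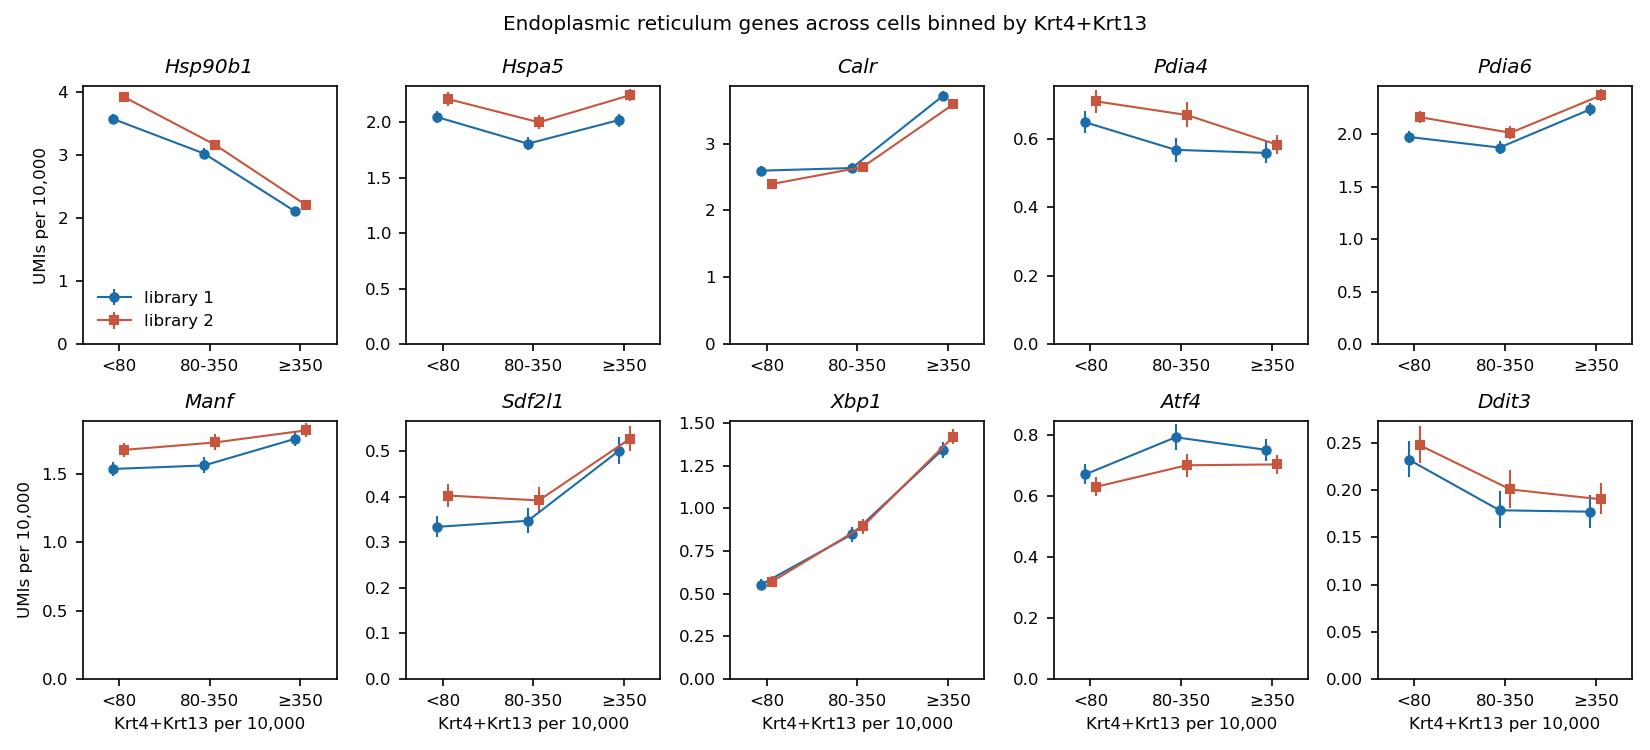
Level of each gene in UMIs per 10000 (vertical axis, from 0) in cells of 3 Krt4+Krt13 bins (horizontal axis) for library 1 (circles) and library 2 (squares), with 95% exact Poisson intervals. Hsp90b1 steps down to 2.11 and 2.21 in the highest bin, Xbp1 steps up to 1.34 and 1.42, and Hspa5 stays between 1.81 and 2.24.

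Cutting each library into 20 equal-sized bins by Krt4+Krt13 showed the same shapes in finer steps. The chaperone sum was highest at the 2 ends: 14.7 and 15.4 in the first bin of library 1 and library 2, 14.1 and 14.9 in the last, and as low as 11.4 and 11.5 between them. Stress-type, immune and glandular-like cells (40 and 39 cells) sat in the first bin, and without them its sum was 13.7 and 14.1. In the last bin, without 23 and 27 such cells, it was 13.2 and 13.9. Hsp90b1 was lowest in bin 18 of both libraries (1.81 and 1.97), Calr was highest in the last bin (4.29 and 4.28), and Xbp1 spanned 0.44 to 1.45 and 0.50 to 1.53. Ddit3 ranged from 0.13 to 0.28 and from 0.15 to 0.30.

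Over these 20 bins the genes whose log2 level ran most like the chaperone sum, out of 5120, were Pdia3, a disulfide isomerase of glycoprotein folding (r = 0.78 in library 1 and 0.83 in library 2), Sf3b2 (0.77 and 0.76), Ctsb (0.76 and 0.84), Egfl6 (0.83 and 0.76) and Slc3a2 (0.86 and 0.69). Those most like Atf4 were Cnbp (0.72 and 0.73), Flii (0.75 and 0.69), Tars (0.69 and 0.72), Acadl (0.66 and 0.68) and Psmd2 (0.69 and 0.65). The r between the chaperone sum and Atf4 was 0.06 and 0.23, with Ddit3 0.20 and 0.06, and with Xbp1 -0.15 and -0.16. Single members gave larger values: r was -0.92 and -0.94 between Hsp90b1 and Xbp1, 0.60 and 0.50 between Ddit3 and Hsp90b1, and -0.70 and -0.65 between Ddit3 and Xbp1. The chaperones did not run as 1 group either. Their r was -0.75 and -0.79 between Hsp90b1 and Calr, 0.29 and 0.17 between Hsp90b1 and Hspa5, and 0.77 and 0.62 between Calr and Pdia6. Bins of 1 library share its depth and its order of cells, so these values describe the curves.

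The lists of pathway genes around the set gave the following counts between the outer bins, to be read against the 9.77% of all genes that were higher and the 29.4% that were lower. Of 12 other ER folding genes compared, 1 was higher and 1 lower: Serp1, which protects new membrane proteins at the translocon, had 2.48 and 2.75 per 10000 at 350 or more in library 1 and library 2, against 1.01 and 1.09 under 80 (log2 1.29 and 1.34), and Tmx1, a thioredoxin-like membrane oxidoreductase, had ratios of -0.89 and -1.04. Of 18 genes of translocation into the ER, Ssr4 was higher (0.61 in each library) and Sec62 lower (-0.87 and -0.81). None of 11 genes of ER-associated degradation and none of 7 genes listed around the integrated stress response passed. Those 7 were Nfe2l2 and subunit genes of the translation factors eIF2 and eIF2B, with no eIF2 kinase gene among them. Of 6 sensors and regulators of the unfolded protein response, Nfyb, a subunit of NF-Y (-1.22 and -1.38), and Mbtps1, the protease that cuts ATF6 (-0.90 and -1.01), were lower.

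Known targets of Atf4 and Ddit3 went both ways, with 5 of 15 higher and 4 lower, against 9.77% and 29.4% of all genes. Nupr1 (1.26 and 1.43), Atf5 (1.30 and 1.13), Cebpb (0.81 and 0.86) and Asns, asparagine synthetase (0.79 and 0.82), were among the higher ones. The lower ones were Vldlr (-2.54 and -2.59), the amino acid transporter Slc7a5 (-1.92 and -1.79), and Shmt2 and Psat1 of serine and glycine metabolism (-0.81 and -0.60 for Shmt2, -0.60 and -0.62 for Psat1). Of 8 genes known to respond to tissue dissociation, Hspa1a was higher (0.988 and 0.998), and Btg2 (-1.10 and -1.15) and Dusp1 (-0.92 and -0.95) were lower.

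Stress-type cells were set against the remaining cells in the bin where most of them lay. Within the bin of at least 350, all 7 chaperones rose in the 65 and 96 stress-type cells over the 1389 and 1960 remaining cells, while Xbp1 and Atf4 stayed inside 1.5-fold and Ddit3 was under the level minimum. The sum of the 7 was 24.3 per 10000 in stress-type cells of library 1 against 12.1 in the remaining cells, and 27.3 against 12.4 in library 2. Its log2 ratios were 0.998 [0.95 to 1.05] and 1.14 [1.09 to 1.18]. Of all 4296 genes compared, 5.4% were past the rule, 2.07% higher and 3.33% lower, with the median at -0.18. The chaperones were chosen with earlier results of these data known, so this share gives a scale and is no test. Scaling by the median of ratios gave 140 higher and 59 lower genes in place of 89 and 143, with the same 7 chaperones higher. The median log2 ratio of the 7 was 0.98 in library 1 and 1.24 in library 2.

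Sdf2l1 had the largest ratio of the 10 genes. It had 1.29 UMIs per 10000 in stress-type cells of library 1 against 0.45 in the remaining cells, and 1.66 against 0.45 in library 2, with log2 ratios of 1.52 [1.28 to 1.75] and 1.86 [1.67 to 2.05]. Hspa5 had 4.09 in stress-type cells against 1.89 in library 1, and 5.12 against 2.06 in library 2, with ratios of 1.12 [0.99 to 1.25] and 1.31 [1.21 to 1.42]. Both genes were thus more than 2-fold higher in each library.

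Among the disulfide isomerases, Pdia6 had 4.70 in stress-type cells against 2.08 in the remaining cells of library 1 and 5.17 against 2.19 in library 2, with ratios of 1.18 and 1.24. Pdia4 had 0.91 in stress-type cells against 0.54, and 1.27 against 0.54, with ratios of 0.77 [0.50 to 1.04] and 1.24 [1.02 to 1.45], the widest gap between libraries of the 7. Manf had 3.27 in stress-type cells against 1.66, and 3.70 against 1.70 (0.98 and 1.12). All of these genes passed 1.5-fold in both libraries.

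Calr and Hsp90b1, which ran opposite ways over the bins, were both higher here. Calr had 6.50 in stress-type cells against 3.53 in library 1 and 6.23 against 3.42 in library 2 (0.88 and 0.86). Hsp90b1 had 3.50 in stress-type cells against 2.02, and 4.20 against 2.08 (0.79 [0.66 to 0.93] and 1.01 [0.90 to 1.13]). All cells of the lowest bin had 3.57 and 3.91.

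Xbp1 had 1.94 in stress-type cells against 1.30 in library 1 and 1.67 against 1.40 in library 2, log2 ratios of 0.57 [0.38 to 0.75] and 0.25 [0.07 to 0.43]. Atf4 had 0.86 in stress-type cells against 0.74, and 0.94 against 0.69, ratios of 0.21 [-0.07 to 0.47] and 0.45 [0.20 to 0.68]. Though inside 1.5-fold, Xbp1 and Atf4 lay above 95.4% and 93.9% of the genes compared. The 7 chaperones lay above 98.6% to 99.6% of them. Ddit3 had 0.22 in stress-type cells against 0.17, and 0.18 against 0.19, from 31 and 30 UMIs in stress-type cells, which allows ratios from -0.23 to 0.87 in library 1 and from -0.65 to 0.47 in library 2. The intervals of Xbp1, Atf4 and Ddit3 lay below those of Hspa5, Pdia6 and Sdf2l1 in both libraries. They cover counting error and leave out the spread between cells, so they do not part the genes by a test. In library 1 the intervals of Hsp90b1 and Pdia4 overlapped those of Xbp1 and Ddit3, and the intervals of Calr and Manf overlapped that of Ddit3.

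Stress-type cells of this bin were deeper, with medians of 19825 and 16298 UMIs against 14621 and 11849 in the remaining cells, and had a median of 2.52% and 2.88% mitochondrial UMIs against 3.03% and 3.46%. None of them was an immune or glandular-like cell, and the summed immune markers were at 0.28 and 0.13 per 10000 against 0.15 and 0.19. Against remaining cells matched on total UMIs, an alternative added after the data were seen, all 7 chaperones passed, with ratios averaged over the libraries from 0.68 for Calr to 1.71 for Sdf2l1. Without the 5% of cells with the most UMIs, 5 of 7 passed, with Hsp90b1 (0.56 and 1.32) and Calr (0.57 and 1.07) missing it in library 1. At 2-fold, 3 passed.

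**Figure D2:**
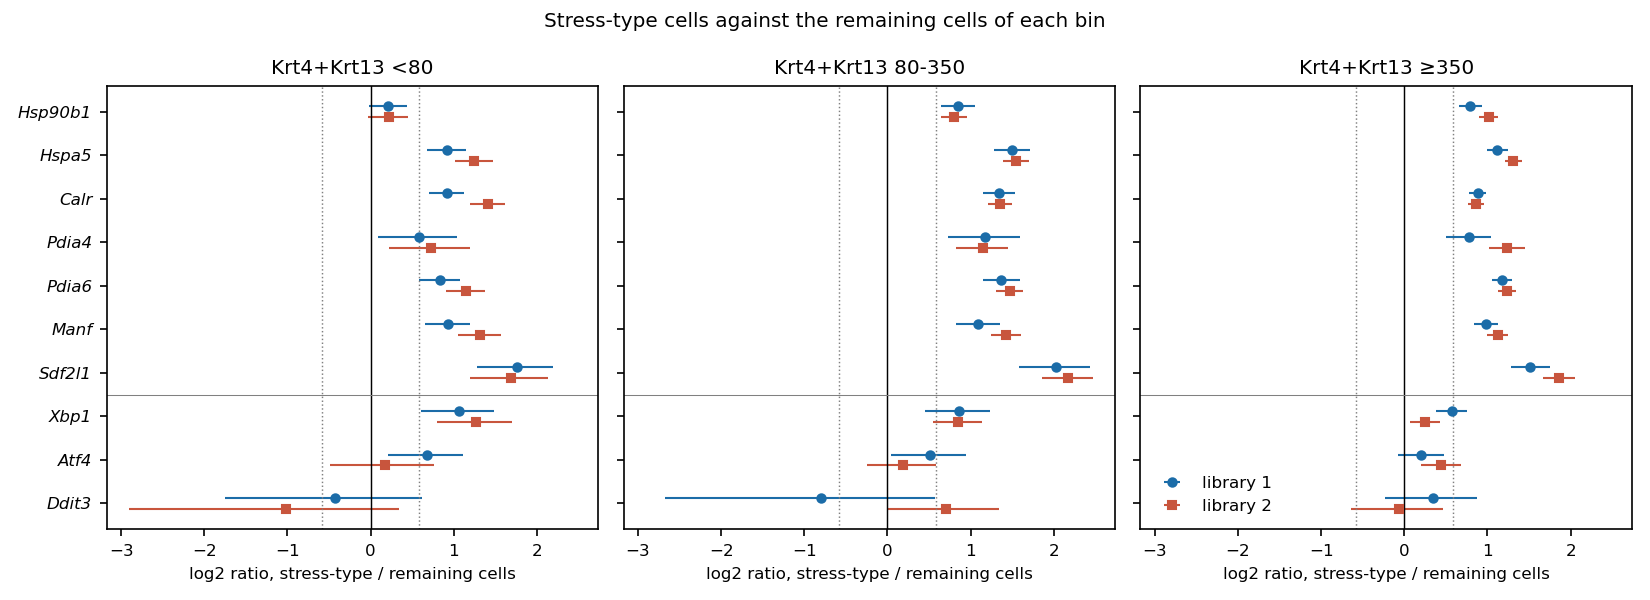
Log2 ratio of stress-type over remaining cells (horizontal axis) for each gene (rows) in the 3 Krt4+Krt13 bins, by library, with 95% exact intervals. Dotted lines mark 1.5-fold, and the grey line parts the 7 chaperones from Xbp1, Atf4 and Ddit3. At 350 or more every chaperone lies right of the dotted line in both libraries, from 0.77 to 1.86.

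The chaperone gap was also seen in the other bins. Among cells under 80, 27 and 26 stress-type cells had chaperone sums of 21.2 and 27.1, against 12.6 and 13.3 in the remaining cells (0.75 and 1.03), and from 80 to 350, 24 and 54 stress-type cells had 27.3 and 29.9, against 11.5 and 12.0 (1.25 and 1.32). Under 80, Hsp90b1 had 4.12 and 4.54 in stress-type cells against 3.56 and 3.91 (0.21 and 0.22), and Pdia4 just missed 1.5-fold (0.58 and 0.73), while the other 5 chaperones passed it. Xbp1 was past 1.5-fold in both of these bins, by 1.06 and 1.27 under 80 and by 0.86 and 0.85 from 80 to 350. Atf4 ratios were 0.68 and 0.17 under 80 and 0.51 and 0.19 from 80 to 350. Whether the ratios differ between bins was not tested.

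Step by step along the marker sum, in cells of at least 350, the chaperone sum was already above its base level before the threshold of 10. It was 11.9 and 12.3 per 10000 at a marker sum under 1, 12.4 and 12.5 from 1 to 5, 17.1 and 15.0 from 5 to 10, 21.5 and 25.9 from 10 to 20, and 29.2 and 30.1 at 20 or more. Xbp1 was 1.27 and 1.36 at the bottom step and 1.91 and 1.63 at the top. Atf4 had 0.75 and 0.70 at the bottom, 0.94 and 0.89 from 10 to 20, and 0.71 and 1.03 at the top, and Ddit3 0.17 and 0.20 at the bottom and 0.28 and 0.12 at the top, so between the bottom and the top the libraries went opposite ways for both genes. The top step held 18 and 30 cells. Within 20% of the threshold lay 35 and 36 cells.

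**Figure D3:**
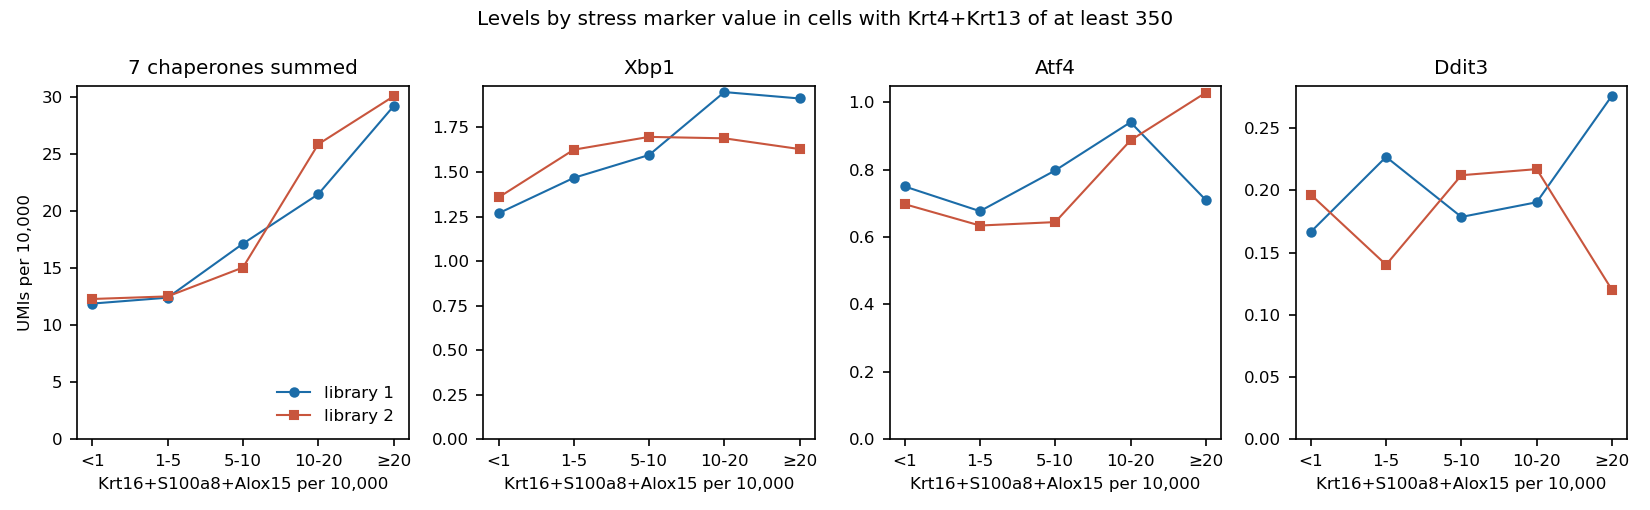
Levels in UMIs per 10000 (vertical axes, from 0) by the summed Krt16, S100a8 and Alox15 level (horizontal axis) in cells with Krt4+Krt13 of at least 350, for library 1 (circles) and library 2 (squares). The chaperone sum is higher from 5 onward and reaches 29.2 and 30.1, whereas Atf4 and Ddit3 lie apart in the libraries at the top step.

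The 3 marker genes did not contribute alike. At 350 or more, 64 of 65 and 89 of 96 stress-type cells had Alox15, a lipoxygenase, as their leading marker. These groups were formed after the data were seen. Cells of this bin with an Alox15 UMI among 3000 thinned UMIs (223 and 284) had chaperone sums of 17.4 and 18.8, those with a Krt16 UMI (36 and 38) had 13.2 and 15.1, and those with none of the 3 markers had 12.0 and 12.3. Under 80, by contrast, 22 and 23 of the stress-type cells were led by Krt16 or S100a8, and their chaperone sums were 21.5 and 27.3.

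Chil4, which encodes a secreted chitinase-like protein and so passes through the ER, was high in the same cells. It had 885 and 989 UMIs per 10000 in stress-type cells at 350 or more, against 48.6 and 43.8 in the remaining cells. By steps of Chil4 in this bin, chosen after the data were seen, the chaperone sum was 12.0 and 12.3 under 10, 9.37 and 11.7 from 10 to 50, 12.3 and 12.2 from 50 to 200, 14.2 and 14.8 from 200 to 500, and 23.7 and 25.6 at 500 or more. With Chil4 left out of the total, the ratios of the chaperone sum were 1.12 and 1.28. The part of Chil4 in the chaperone levels was not tested.

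Per cell, the chaperone sum had a median of 22.4 per 10000 in stress-type cells of library 1 at 350 or more, against 10.4 in the remaining cells, and 25.5 against 10.4 in library 2. In library 1, 87.7% of stress-type cells lay above the median of the remaining cells [77.2 to 94.5], and in library 2 93.8% [86.9 to 97.7]. Both ranges cover the draw of cells from the same suspension. Cells are not replicates, and the spread between mice is not covered. The groups overlapped: 10% of stress-type cells were under 9.64 and 12.8, and 10% of the remaining cells were over 19.4 and 19.96.

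The pathway lists gave the following counts in stress-type cells, to be read against the 2.07% of all genes that were higher and the 3.33% that were lower. Of 14 other ER folding genes compared, 6 were higher and none lower, with a list median of 0.46: Pdia3 (0.74 and 0.95), the P58IPK gene Dnajc3 (0.86 and 0.78), Creld2 (0.97 and 0.80), P4hb, the founding disulfide isomerase (0.81 and 0.86), Dnajb11, the gene of ERdj3 (0.68 and 1.10), and Serp1 (0.77 and 0.66). Of 18 translocation genes, 5 were higher and none lower, with a median of 0.45: Sec11c of the signal peptidase (1.11 and 0.84), Sec63 (0.96 and 0.71), and Sec61a1 (0.72 and 0.82), Sec61b (0.70 and 0.65) and Tram1 (0.66 and 0.80) of the translocon. Of 11 degradation genes, Edem1, which directs misfolded glycoproteins to disposal, was higher (0.79 and 0.84) and none lower, with a median of 0.13.

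Of 14 targets of Atf4 and Ddit3, Mthfd2, a mitochondrial folate enzyme, was higher (0.85 and 1.07) and none lower, with a list median of 0.07. None of 5 sensors and regulators of the unfolded protein response passed (median -0.26). Nor did any of the same 7 genes listed around the integrated stress response (-0.09) or any of 7 dissociation genes (0.00). The median over all genes was -0.18, with 2.07% of them higher and 3.33% lower. At those shares, none of 5 or 7 genes is not a low count.

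In histone-high cells, with levels standardised over the 3 bins, none of the 10 genes passed the rule. Of all 5225 genes compared, 2.53% passed it (0.191% higher and 2.33% lower), so none of 10 is near that share. The 2 genes furthest up were Hsp90b1, with 4.28 per 10000 in histone-high cells of library 1 against 2.92 in the remaining cells and 4.16 against 3.14 in library 2 (log2 0.55 and 0.41), and Ddit3, with 0.27 against 0.20 and 0.29 against 0.21 (0.47 and 0.46). They lay above 99.6% and 99.5% of the genes compared. The Ddit3 ratios were 0.22 and 0.32 without cycling cells and 0.19 and 0.38 after thinning. Sdf2l1 had ratios of -0.39 and -0.25, and the other 7 genes lay between -0.08 and 0.17. At a histone minimum of 10 in place of 5, Hsp90b1 was past the rule (0.78 and 0.82). Within 20% of the minimum of 5 lay 688 and 888 cells.

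Hsp90b1 depended on where the histone-high cells stood. Under 80 it had 5.18 and 5.51 in histone-high cells, against 3.32 and 3.64 in the remaining cells (0.64 and 0.60), which was past 1.5-fold, while at 350 or more it had 2.14 and 2.01, against 2.10 and 2.23 (0.02 and -0.15). The difference between the bins was not tested. Ddit3 ratios were 0.65 and 0.49 under 80, and 0.38 and 0.34 at 350 or more.

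Cycling cells carried more Hsp90b1 as well. Standardised over the bins, it had 3.97 in cycling cells of library 1 against 2.47 in the remaining cells and 4.05 against 2.62 in library 2 (0.69 and 0.63), and was the 1 gene of the 10 past the rule, against 9.11% of 5304 genes (7.71% higher and 1.4% lower). The count of 1 in 10 is thus near the share of all genes, and Hsp90b1 lay above 92.6% of the genes compared. After thinning, the ratio was 0.57 in library 1, just under the rule, and 0.73 in library 2. Manf had ratios of 0.35 in both libraries, and of 0.68 and 0.61 among cells under 80. Xbp1 had ratios of -0.55 and -0.35, Ddit3 -0.56 and -0.25, and Calr -0.17 and -0.16, none of them past the rule. Without standardising over the bins, Xbp1 was lower past the rule (-0.94 and -0.91). From the lists, Fkbp2, an ER prolyl isomerase (0.67 and 0.60), and Nfyb (0.69 and 0.64) were higher, and Hspa1a lower (-0.98 and -0.76).

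Hsp90b1 was highest where both histone mRNA and cycling genes were high, outside the bin of at least 350. Among cells under 80 it had 6.28 and 6.91 in histone-high cycling cells, 4.64 and 4.62 in histone-high cells that were not cycling, 4.26 and 4.47 in histone-low cycling cells, and 2.27 and 2.50 in histone-low cells that were not cycling. The 4 groups kept this order from the first to the last in both libraries, with the middle pair close together. From 80 to 350 the first group had 5.73 and 5.69 and the last 2.11 and 2.34. At 350 or more, the histone-high cells that were not cycling had 2.14 and 1.94 against 2.08 and 2.22 in histone-low ones. Histone-low cycling cells of that bin averaged 2.65 over the libraries. Histone-high cycling cells numbered 2 and 5 in that bin, too few to read. Histone-high cells were shallower under 80, with medians of 5597 and 4789 UMIs against 6656 and 5539.5. The part of depth was not tested, and with histone groups taken from thinned counts the overall histone ratio of Hsp90b1 was 0.57 and 0.41.

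**Figure D4:**
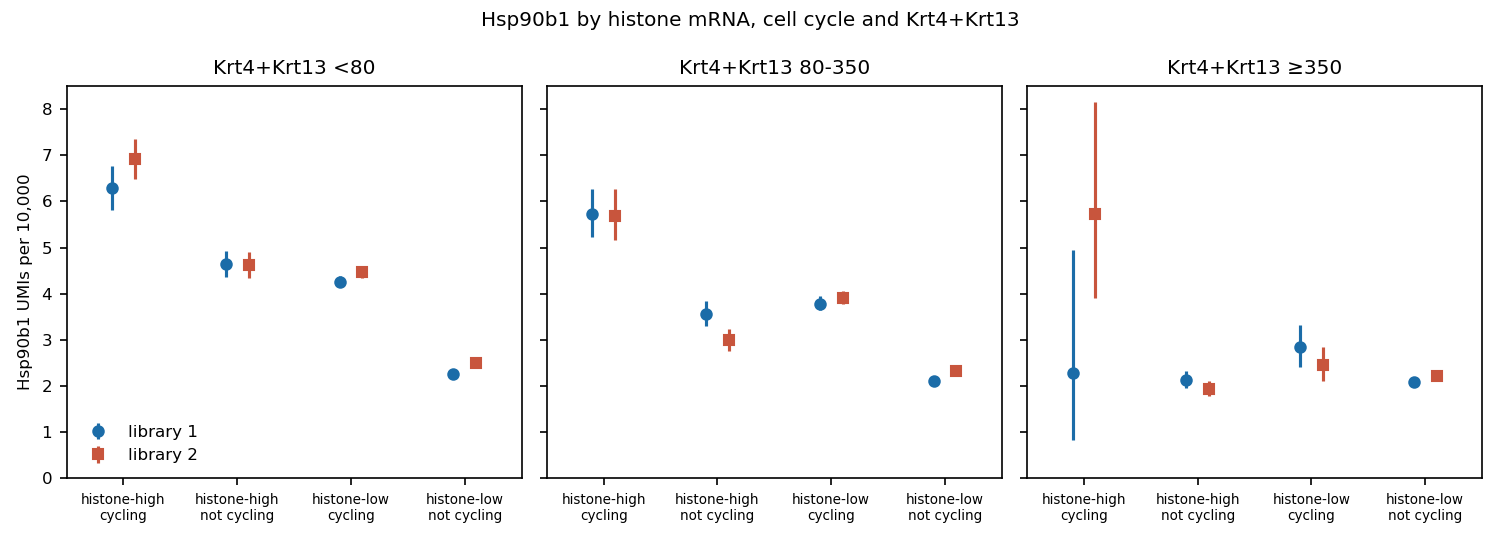
Hsp90b1 in UMIs per 10000 (vertical axis, from 0) in cells parted by histone mRNA and cell cycle (horizontal axis) and by Krt4+Krt13 (panels), for library 1 (circles) and library 2 (squares), with 95% exact Poisson intervals. Under 80 the level spans 2.27 and 2.50 in histone-low cells that were not cycling to 6.28 and 6.91 in histone-high cycling cells. At 350 or more histone-low cycling cells averaged 2.65 over the libraries. Histone-low and histone-high cells that were not cycling averaged 2.15 and 2.04 there. The histone-high cycling group of that bin held 2 and 5 cells.

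Whether the chaperones moved together from cell to cell was asked by splitting the cells on Hspa5 alone. After thinning each cell to 3000 UMIs, 2589 and 3395 cells had at least 1 Hspa5 UMI and 4318 and 5168 had none. With levels standardised over the bins, the other 6 chaperones had positive ratios in both libraries, but none passed 1.5-fold in both. Hsp90b1 had 3.84 in cells with Hspa5 against 2.62 in cells without in library 1, and 4.13 against 2.69 in library 2 (0.55 and 0.62). Pdia4 had 0.74 in cells with Hspa5 against 0.52, and 0.81 against 0.57 (0.51 and 0.52). Calr had ratios of 0.42 and 0.51. Pdia6, Manf and Sdf2l1 had ratios between 0.39 and 0.42. In the same cells Xbp1 had ratios of 0.10 and 0.17, Atf4 0.19 and 0.20, and Ddit3 0.10 and 0.03.

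The 6 chaperones lay above 98.6% to 99.7% of the 5265 genes compared, Atf4 above 91.2%, Xbp1 above 84.3% and Ddit3 above 67.6%. Of these 5265 genes, 0.152% passed the rule, all higher. Those 8 genes were Sprr2a3 (1.25 and 1.56), Chil4 (1.23 and 1.43), Alox15, Krt16, Krt6a, Spink5, H2-Eb1 and Cd74. Stress-type cells made up 2.70% and 3.45% of the cells with Hspa5 and 1.07% and 1.14% of those without. With stress-type and histone-high cells left out, the 6 ratios, averaged over the libraries, ran from 0.30 for Sdf2l1 to 0.54 for Hsp90b1. Cells with Hspa5 had medians of 7966 and 6934 UMIs, against 7516 and 6548. No cell type here should lack these genes, so the level of free RNA could not be set, and a cell without a UMI is not a cell without the transcript.

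The same split was made on Ddit3. The 404 and 581 cells with a Ddit3 UMI differed from the 6503 and 7982 without by ratios between -0.16 and 0.13 for the other 9 genes, with Atf4 at 0.04 and 0.10 and Hspa5 at 0.07 and -0.06. None passed the rule, against 0.0762% of 5251 genes, the 4 antigen presentation genes H2-Aa, Cd74, H2-Eb1 and H2-Ab1, all lower. Without glandular-like and immune cells no gene passed. Ddit3 was seen in 5.85% and 6.79% of thinned cells, and a cell without a UMI may still hold the transcript, so differences were hard to detect at this depth.

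**Figure D5:**
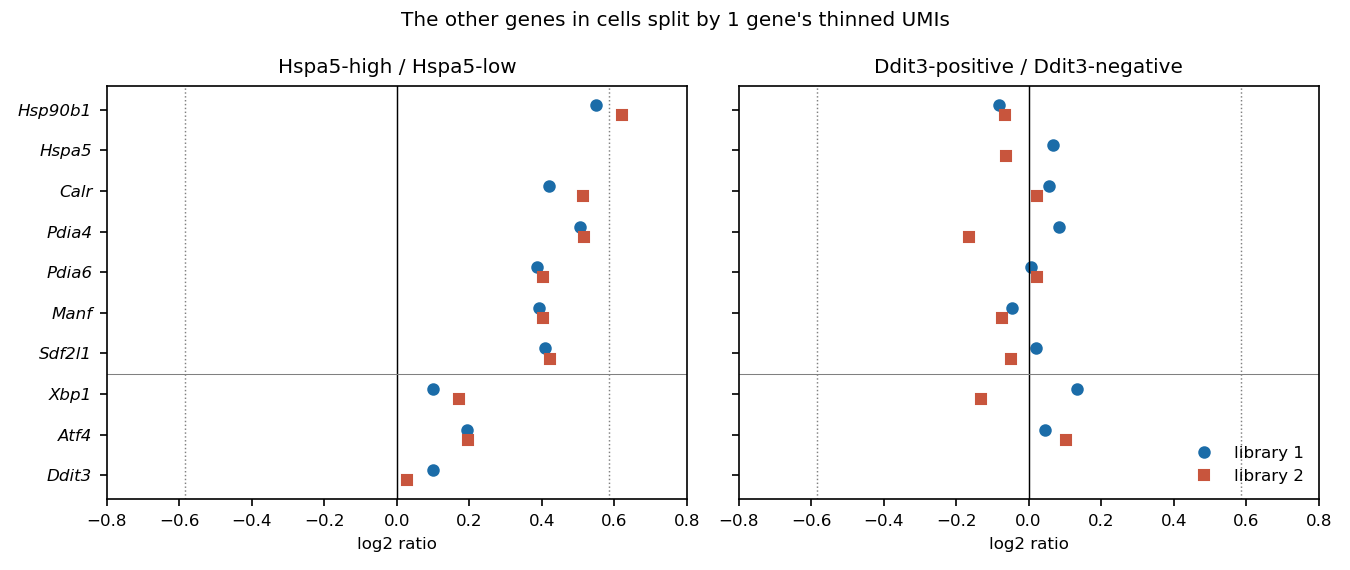
Log2 ratio (horizontal axis) of each other gene (rows) in cells with at least 1 thinned UMI over cells with none, for Hspa5 (left) and Ddit3 (right), by library. Dotted lines mark 1.5-fold. The 6 other chaperones lie between 0.39 and 0.62 in the Hspa5 split, and all genes lie between -0.16 and 0.13 in the Ddit3 split.

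By position (GENCODE M21 on GRCm38), Hsp90b1 lies at chr10:86690209-86705509 on the minus strand, Hspa5 at chr2:34771970-34777547 on the plus strand, Calr at chr8:84841850-84846934 on the minus strand, Pdia4 at chr6:47796141-47813430 on the minus strand and Pdia6 at chr12:17266545-17284770 on the plus strand. Manf lies at chr9:106838312-106891979 on the minus strand, Sdf2l1 at chr16:17130138-17132383 on the minus strand, Xbp1 at chr11:5520659-5525893 on the plus strand, Atf4 at chr15:80255184-80257541 on the plus strand and Ddit3 at chr10:127290774-127296288 on the plus strand. Other counted genes overlap 4 of them: 1810014B01Rik overlaps Hsp90b1, Atp6v1c2 overlaps Pdia6, Dcaf1, Rbm15b and 4930524O07Rik overlap Manf, and Mars overlaps Ddit3. The use of strand in counting was not given in the sources used here, so reads in the overlaps may be uncertain.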

How the data were processed

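The deposited files hold whole-number UMI counts per gene and cell barcode, from the authors. Per the submitters' processing notes they were made with Cell Ranger on mm10. Its version, the cell-calling filter, the gene annotation and the use of strand were not given in the sources used here. Cells needed 500 genes or more, and no more than 10% of their UMIs from mitochondrial genes. The mitochondrial limit left out 821 barcodes and the gene limit 0. Doublets were not removed: an alternative leaves out the 5% of cells with the most UMIs. UMIs were summed per group and library and scaled to 10000. Phase genes summed to at least 5 per 10000 (Mki67, Top2a, Cenpf, Ube2c and Ccnb1, or Mcm3, Mcm5, Mcm6, Rrm2, Tyms and Hells) marked cycling cells. Histone, cycling, Hspa5 and Ddit3 comparisons weighted each bin by its share of the library, using bins with at least 20 cells per group. The stress comparison used the bin of at least 350. Genes that define a group were left out of its comparison. In ratios, a level of 0 was set to that of 3 counts.

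The libraries are technical splits of 1 suspension of 10 mice, so no significance test was run. Levels carry exact Poisson intervals, ratios exact conditional binomial ones and shares exact binomial ones (Clopper-Pearson), all at 95%. Thinning drew 3000 UMIs per cell, and the lowest cell had 3149. The Hspa5 split was set at the 25th and 75th percentiles of thinned UMIs and came out as 0 against at least 1. The 10 members and the 7 pathway lists were chosen with earlier results of these data known. Named genes are the 10 members, up to 6 per list past the rule, the leading genes of the Hspa5 and Ddit3 splits, and the 5 genes most alike to the chaperone sum and to Atf4. Chil4, the leading marker and single-marker groups were chosen after their values were seen. Gene positions were matched by identifier for 27645 of 27998 genes (98.7%), and promoter windows by symbol for 9 of the 10 members. The size rule was tested on simulated data. The work used scipy 1.17.1 and numpy 2.4.6 in Python 3.11.15, with tables in pandas 2.3.3 and figures in matplotlib 3.10.9. Alternatives changed the scaling, thinning, level minimum, fold, thresholds of the groups and the cells kept. Those without histone-high and cycling cells, and with cells matched on total UMIs, were added after the data were seen.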

Additional observations from a re-analysis of the deposited data

Results flagged for a closer look

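In 7 cases a gene's ratio had one sign in both libraries at Krt4+Krt13 of at least 350 and the other sign in both under 80. None of these differences was tested. At 350 or more the ratios lay inside 1.5-fold in both libraries, except that of Sdf2l1 in the cycling contrast, which was -0.71 in library 1 and -0.23 in library 2. In the histone contrast (histone-high over the remaining cells), the log2 ratio at 350 or more minus that under 80 was -0.40 for Hspa5, -0.28 for Pdia4, -0.39 for Pdia6 and -0.41 for Xbp1. In the cycling contrast (cycling over the remaining cells) it was -0.41 for Pdia4, -0.75 for Manf and -0.77 for Sdf2l1. The 30 and 50 cycling cells at 350 or more limit the precision there.

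A signal also stood in barcodes that no comparison used. In the 308 and 513 barcodes left out for mitochondrial UMIs, Atf4 had 1.01 and 0.83 UMIs per 10000, against 0.73 and 0.68 in kept cells, a mean log2 ratio of 0.38 (0.47 and 0.29), which is inside 1.5-fold. Sdf2l1 was lower past 1.5-fold in both libraries, with 0.19 and 0.28 in these barcodes against 0.40 and 0.45 (-1.09 and -0.66, from 28 and 67 UMIs). The chaperone sum was 10.5 and 10.3 in these barcodes, against 12.5 and 13.2, and Xbp1 0.53 and 0.65, against 0.91 and 0.99 (-0.79 and -0.61). Per UMIs that are not mitochondrial, Atf4 ratios were 0.61 and 0.43, those of Sdf2l1 -0.94 and -0.52, those of Xbp1 -0.65 and -0.47, and those of the chaperone sum -0.11 and -0.21. Medians were 4342 and 4122 UMIs per left-out barcode.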

How the results depend on the processing

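The 7 chaperones higher in stress-type cells all passed the size rule under each alternative run, except that Hsp90b1 and Calr missed it without the 5% of cells with the most UMIs, Hsp90b1 missed it (0.46 and 0.60) with all bins together, where Xbp1 passed (0.96 and 0.74), and 3 of 7 passed at 2-fold. Among the values of single genes, 747 alternatives moved by less than the spread between libraries and 265 by more, and 0 changed the direction of a called gene. With 1 pooled suspension the spread between libraries is technical, and counting error limits Ddit3 and the small groups. No paired analysis was possible because there is 1 group, and the replicate numbers name libraries of 1 suspension.

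At 2-fold in place of 1.5-fold, the genes past the rule numbered 1056 (1 member) for Krt4+Krt13 of at least 350 over under 80, 240 (0 members) for 80 to 350 over under 80, 65 for histone-high, 56 (3 members) for stress-type, 269 (0 members) for cycling and 3 for Hspa5-high cells. In that order they were out of 5085, 5374, 5225, 4296, 5304 and 5265 genes compared. With a level minimum of 0.5 they were 911, 297, 65, 99 and 238 in the same order of the first 5 comparisons, and 1 for Ddit3-positive cells. With no level minimum they were 7730, 3485, 2992, 4067, 3036, 999 for Hspa5 and 3306 for Ddit3. A histone minimum of 10 gave 228 genes and 1 member, Hsp90b1, and a stress minimum of 20 gave 440 genes. With all bins together, 1087 genes passed in stress-type cells and 1111 in cycling cells, with 2 members in cycling cells. The number of genes compared changes with the level minimum and with the cells used. Except at 2-fold, counts here and below are therefore not shares, and member counts are not read against them.

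After thinning to 3000 UMIs, 73 genes passed in histone-high cells and 0 members in cycling cells. For 80 to 350 over under 80, 0 members passed after thinning, with the mean over cells, at mitochondrial UMIs of at most 5%, without the 5% of cells with the most UMIs, and without cycling cells. Without cycling cells, 40 genes passed for histone-high cells and 20 for Hspa5-high cells, among them 1 member, Hsp90b1. Without histone-high and stress-type cells, 5 genes passed for Hspa5-high cells, and without glandular-like and immune cells 0 for Ddit3-positive cells. With 1 library left out, the rule then resting on the other alone, the genes past it numbered 482 to 497 for stress-type, 19 to 23 (0 to 1 member) for Hspa5-high and 16 to 17 for Ddit3-positive cells. Beyond what these settings change by their construction, the cause was not tested.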

Other observations

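Levels in the rarer cells of the sort were as follows. Sdf2l1 had 1.32 UMIs per 10000 in 33 immune cells of library 1 and 1.79 in 51 of library 2 (37 and 75 UMIs), and 0.09 and 0.17 in 68 and 54 glandular-like cells (4 and 5 UMIs), against 0.39 and 0.44 in the cells that were neither. Hspa5 had 3.47 and 5.65 in immune cells and 2.69 and 3.07 in glandular-like cells, against 1.96 and 2.14. The chaperone sum was 16.4 and 20.2 in immune cells and 12.8 and 14.4 in glandular-like cells, against 12.5 and 13.1. Atf4 was 1.001 and 0.67 in immune cells and 0.69 and 0.31 in glandular-like cells, against 0.73 and 0.68. Ddit3 had between 6 and 9 UMIs in each of these groups and library.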
